A study of Homo sapiens with 20 samples.

Results

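The nuclear-encoded genes of the respiratory chain and the ATP synthase were examined as one group. Members were chosen by symbol: the NDUFA, NDUFB, NDUFC, NDUFS, NDUFV, UQCR, ATP5F1, ATP5M and ATP5P families, SDHA to SDHD, and the subunits COX4 to COX8. The rule gave 97 of the 28278 genes in the gene table, and 5 pseudogene, antisense or divergent noncoding symbols (NDUFA6-DT, NDUFAF4P1, NDUFB2-AS1, NDUFV2-AS1 and UQCRBP1) were left out. Complex I contributed 46 members, complex II 4, complex III 9, complex IV 19 and complex V 19, counting assembly factors NDUFAF1 to NDUFAF8 with complex I and the readthrough symbols NDUFC2-KCTD14 and ATP5MF-PTCD1 with complexes I and V. ATP5MD and ATP5MPL are older symbols of ATP5MK and ATP5MJ. Of the 97 genes, 56 had at least 1 listed skipped exon event and 41 had none, so splicing was measured for the former only.

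The study profiled 20 libraries from HepG2, a human liver cancer cell line that served as the only cell type in every group. Poly(A) RNA was sequenced 48 hours after transfection with siFUBP1 or its control siRNA siCtrl2 (3 libraries each), and 72 hours after transfection with an antisense oligonucleotide against the U3 small nucleolar RNA (U3 ASO) or against GFP (GFP ASO, 3 libraries each). RNA was also taken 48 hours after siFBL or siCtrl, as input and after FUBP1 immunoprecipitation (RIP, 2 libraries per group). Each experiment had its own control, and the comparisons asked how loss of the RNA-binding protein FUBP1, of the U3 RNA or of the nucleolar methyltransferase fibrillarin (FBL) changed exon use and transcript levels.

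The respiratory chain passes electrons from NADH and succinate through complexes I to IV to oxygen and pumps protons across the inner mitochondrial membrane, and the ATP synthase, complex V, uses that gradient to make ATP. The members are transcribed in the nucleus, and most are spliced there. Their proteins are imported into mitochondria, where most join a few subunits encoded by mitochondrial DNA. Hepatocytes are rich in mitochondria, and some complex IV subunits and the catalytic core of the ATP synthase are present in almost every tissue whereas other complex IV isoforms are restricted to muscle, lung or testis. FUBP1 binds single-stranded T-rich or U-rich sequence and acts in splicing, and U3 and FBL act in the nucleolus on ribosomal RNA.

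The 3′ splice sites of the exons on which the splicing results turn are shown first, since the pyrimidine tract before an exon is the part of the pre-mRNA read when the 3′ splice site is chosen. Sequences are from the hg38 genome, written 5′ to 3′ on the transcribed strand, with the last intronic bases in lower case and the first exonic bases in capitals.
NDUFS4 172-base exon, chr5:53604704-53604726, plus strand: gctcctgccttcctctctagGTT
NDUFS4 89-base exon, chr5:53604787-53604809, plus strand: actctttttcctgcttcaagGCA
ATP5MD 287-base exon, chr10:103396030-103396052, minus strand: tttcttctgtatgtccatagCTG
UQCRH 148-base exon, chr1:46309877-46309899, plus strand: tttaccaccttgtttttcagATA
NDUFV3 1095-base exon, chr21:42903162-42903184, plus strand: ctctttatgccgtttcccagATG
COX5A 122-base exon, chr15:74926885-74926907, minus strand: ccttctttttaattttgcagGGA
NDUFB5 89-base exon, chr3:179614951-179614973, plus strand: gggtaattcaatattcccagCTC
The intronic part of these windows held between 6 T (NDUFB5) and 11 T (COX5A). Every window ends its intron in AG, as did all 141 distinct member exons.

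The 2 NDUFS4 exons are nested. They occupy chr5:53604724-53604895 and chr5:53604807-53604895, share the 5′ splice site ATGgtaatc at chr5:53604893-53604901, and lie between coding exons 2 and 3 of the canonical transcript. NDUFS4 is an accessory subunit of the matrix arm of complex I. In GENCODE 44 both forms occur only in transcripts marked for nonsense-mediated decay. In the transcript with the 89-base form the reading frame ends inside the exon, at a TAA that starts at its position 43. The coding stretch and stop codon of that exon, with the stop in capitals, cover chr5:53604807-53604851.
NDUFS4 89-base exon, coding stretch: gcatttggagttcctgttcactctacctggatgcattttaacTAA
The ATP5MD exon (chr10:103395746-103396032) is exon 2 of the canonical transcript and lies before the start codon. ATP5MD is a small membrane subunit of the ATP synthase. The UQCRH exon (chr1:46309897-46310044) lies only in a transcript marked for nonsense-mediated decay, and UQCRH is the hinge protein of complex III.

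Member exons resembled the other listed exons in most sequence features. They had a median length of 115 bases, against 117 bases over the 31988 distinct exons of all genes. The last 50 intronic bases before member exons held a median of 40% T and 58% pyrimidine, against 38% and 60% over all exons. A length divisible by 3 was found in 34.0% of member exons and 41.5% of all exons. By annotation, 111 of the 141 member exons are coding in a protein-coding transcript, 18 occur only in transcripts marked for nonsense-mediated decay or without a coding sequence, 10 lie outside the coding sequence and 2 have no GENCODE exon with the same ends. None of these differences was tested.

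Libraries held 2693397 to 4474350 junction reads in the siFUBP1 experiment, 11249641 to 13321799 in the U3 experiment and 910779 to 1142189 in the FBL experiment. FUBP1 itself, read at 1 listed exon, had 45.2 to 56.1 junction RPM (reads at listed junctions, scaled to the junction-read total of the library) in siCtrl2 and 4.08 to 10.1 in siFUBP1, without overlap. FBL had no listed event in the input table, so its depletion was not checked there, and the U3 RNA is not measured by exon junctions. All 14 hepatocyte markers had a mean normalized count of at least 10 in the gene table and reached the 75.1 to 99.97 percentile of genes by level per kilobase, while 3 of 5 fibroblast, 4 of 4 endothelial and 1 of 4 blood markers reached that count. By the same rank the endothelial markers reached only the 1.80 to 13.4 percentile. Those fibroblast markers that were ranked reached 3.93 to 47.4 and the ranked blood marker 64.6. In bulk RNA, fewer cells and less RNA per cell cannot be told apart.

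Most respiratory chain genes ranked high in HepG2 cells by mean normalized count per kilobase. This count mixes transcript level with recovery by FUBP1 immunoprecipitation. The gene table gives only the authors' mean normalized count for each condition, over RIP and input libraries together, so it carries no replicate error and no test was made. As a level per kilobase of the canonical transcript, 88 of the 97 members reached the count minimum of 10 in siCtrl and had a median percentile of 78.7 among 14469 genes, with quartiles at 65.3 and 88.6. There were 17 members above the 90th percentile. In siFBL the median was 80.2 over 86 ranked members. The exon-union length lowered the medians to 68.7 and 71.9.

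Median ranks by canonical transcript length differed by role within the chain, and the differences were not tested. Ranks with exon-union lengths are not given by complex or role. Among ranked members, complex IV had the highest median percentile in siCtrl, at 87.2 over 13 of its 19 members. Complex II followed at 84.2 (4 of 4), then complex V at 82.5 (18 of 19). Complex III was at 76.2 (9 of 9) and complex I at 73.2 (44 of 46). These medians leave out members below the count minimum, and complex IV lost the largest share, so the order holds for ranked members only. The ranges of the 5 complexes overlapped widely. Within complex I the 7 core subunits had a median percentile of 77.1, the ranked accessory subunits 76.4 and the 8 assembly factors 58.1. Their ranges overlapped, at 69.3 to 92.4 for the core subunits and 27.8 to 89.7 for the assembly factors. Within complex V the 4 peripheral stalk subunits had a median of 86.1, the F1 subunits 82.5 and the 3 genes of the c ring 68.2. The highest members were COX4I1, a complex IV subunit found in most tissues (97.8), NDUFAB1, the mitochondrial acyl carrier protein (96.6), and ATP5ME, a membrane subunit of the ATP synthase (96.4).

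**Figure D1:**
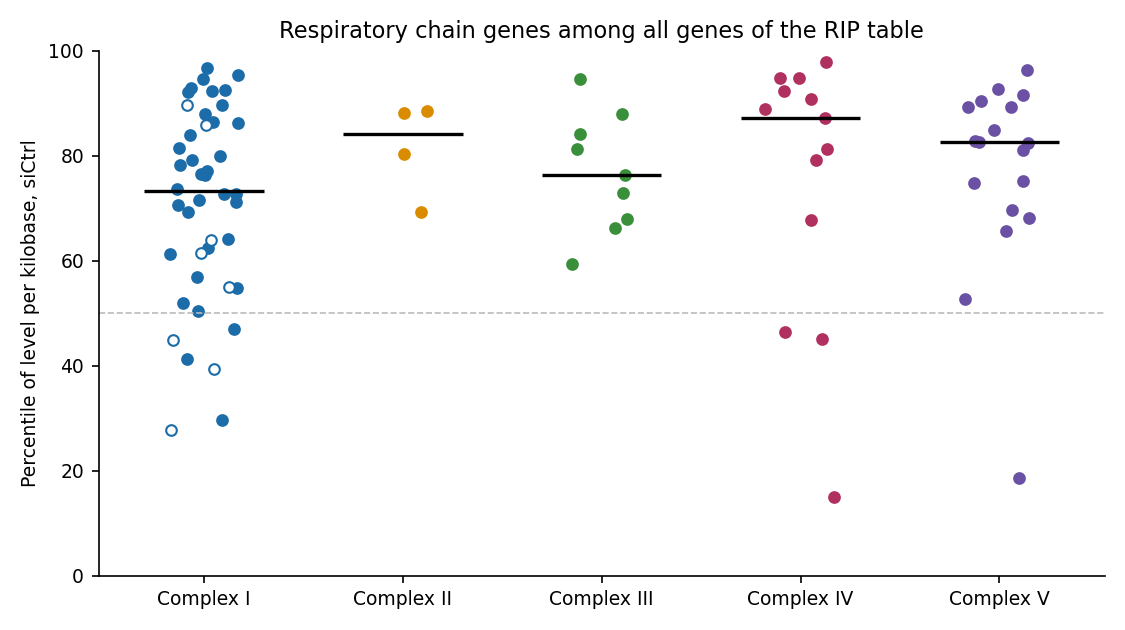
Percentile of each member's level per kilobase among all genes with a mean normalized count of at least 10 in siCtrl, by complex. Each point is a gene, open circles are complex I assembly factors, black lines are the median of each complex (73.2, 84.2, 76.2, 87.2 and 82.5 for complexes I to V), and the dashed line is the 50th percentile.

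The 9 members below the minimum were mostly tissue-restricted forms. COX4I2, COX6A2, COX6B2, COX7A1, COX7B2 and COX8C, isoforms of complex IV subunits known from lung, muscle, testis or other tissues, had mean normalized counts from 0 to 1.85 in siCtrl. NDUFA3, a membrane arm subunit of complex I, had 6.43, and both readthrough symbols were listed at 0. The 29 other accessory subunits of complex I were ranked, from the 29.6 to the 96.6 percentile. The cause of the low NDUFA3 count was not tested. NDUFA4L2 and ATP5MGL stood just above the minimum at 12.2 and 16.5. The partner isoforms of the complex IV forms had higher mean normalized counts in siCtrl. COX4I1, COX6A1, COX6B1 and COX7A2 had 4186, 1063, 693 and 342, and COX7B and COX8A had 412 and 210. By level per kilobase COX7B stood at the 46.3 percentile, COX8A at 67.8 and the other partners from 79.2 to 97.8. Values of genes with near-identical copies, such as UQCRHL beside UQCRH, are uncertain because reads can be divided between the copies.

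Most member exons were included in nearly all control transcripts. In GFP ASO, 111 of 153 tested member events (72.5%) had a mean inclusion level of at least 0.95, against 66.9% of all events. The inclusion level is the share of junction reads, corrected for the number of junctions, that includes the exon, from 0 to 1. A further 23 events lay from 0.05 to 0.95 and 19 below 0.05. Of those 19 rarely used exons, 10 occur only in transcripts marked for nonsense-mediated decay or without a coding sequence and 6 lie outside the coding sequence. In siCtrl2, 69 of 97 member events (71.1%) were at 0.95 or above, against 60.9% of all events. Member events were also deeper, with a median of 562 junction reads per library in the U3 experiment against 124.5 over all events.

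The event tables listed 106 member events in 46 genes for siFUBP1, 157 in 53 genes for U3 ASO and 38 in 26 genes for siFBL. Events of a gene can share exons or reads, and are not independent of each other. A quasi-binomial F test on the junction reads with moderated dispersion was applied where the libraries averaged 10 or more junction reads at the event, with Benjamini-Hochberg adjustment over all events of the table. Events at an adjusted p below 0.1 were called. Changes are given as depleted minus control inclusion level.

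After U3 depletion, 2 of 153 tested member events were called (NDUFS4 and ATP5MD), against 68 of 30110 over all events, or 0.226%. Both exons were included more. Over all tested member events 63 had a higher and 90 a lower mean, against 12287 and 17816 over all events, with a median absolute change of 0.0065 against 0.0205 over all events. An unadjusted p below 0.05 was found for 12 member events (7.84%), against 4.17% over all events. The groups did not overlap in 21 member events (13.7%), 12 higher and 9 lower, against 6.03% over all events. By complex, these events were 13 of 80 tested in complex I, 5 of 40 in complex V and 3 of 12 in complex IV. Complex II had 0 of 6 and complex III 0 of 15.

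The NDUFS4 172-base exon was included at 0.037, 0.003 and 0.003 in the GFP ASO libraries and at 0.086, 0.079 and 0.048 in the U3 ASO libraries. All 3 U3 ASO libraries lay above the highest control. The levels rest on 39, 3 and 3 inclusion junction reads in GFP ASO and 84, 82 and 66 in U3 ASO, beside 448 to 648 skipping reads in each library. The mean rose by 0.057, from 0.014 ± 0.019 to 0.071 ± 0.020 (SD, n = 3). The quasi-binomial test gave an adjusted p of 0.0204. GFP ASO library 1 stood apart from the other controls, and the event's own dispersion of 16.8 was above the shared value of 7.02. With its own dispersion the adjusted p was 0.851.

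The call also depended on single libraries. Leaving out GFP ASO library 1 gave an adjusted p of 0.000338 by the quasi-binomial test, whereas leaving out GFP ASO library 2 or 3 gave 0.470 and 0.334 and leaving out U3 ASO library 1 or 2 gave 0.229 and 0.211. The nested 89-base form showed the same order of groups, at 0.019, 0 and 0 in GFP ASO against 0.047, 0.035 and 0.037 in U3 ASO. Its change of 0.033 was not called (adjusted p = 0.486), and it shares the downstream junction of the 172-base form. The junction reads of NDUFS4 as a whole were not called as changed in that experiment.

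The ATP5MD 287-base exon was included at 0.140, 0.092 and 0.123 in GFP ASO and at 0.199, 0.233 and 0.220 in U3 ASO. The groups did not overlap. The mean rose by 0.099, from 0.118 ± 0.024 to 0.217 ± 0.017 (SD, n = 3). Its adjusted p was 0.0339 by the quasi-binomial test and 0.0498 with its own dispersion. Limma on the log odds gave adjusted p-values of 0.863 to 0.887. Without GFP ASO library 2 or 3 the quasi-binomial adjusted p was 0.608 and 0.137, and without U3 ASO library 2 or 3 it was 0.287 and 0.279. A second ATP5MD exon of 196 bases, also before the start codon, stayed near its control level (0.149 against 0.133, unadjusted p = 0.702).

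Other complex I exons changed less or with more spread. NDUFB5, a membrane arm accessory subunit, had an 89-base exon at 1 in all GFP ASO libraries and at 0.945, 0.935 and 0.986 in U3 ASO (unadjusted p = 0.0178, adjusted p = 0.844 by the quasi-binomial test). A 93-base exon of NDUFB6, another membrane arm subunit, went the other way, from 0.759, 0.844 and 0.939 to 1 in every U3 ASO library on a mean of 64.8 reads when measured against one downstream exon. Measured against another downstream exon, on a mean of 168 reads, the same exon was at 1, 0.918 and 1 in GFP ASO and at 0.923, 0.937 and 0.984 in U3 ASO, with overlap (unadjusted p = 0.561). The 121-base exon of NDUFV3, a small subunit beside the NADH-binding module, was at 0.902, 0.945 and 0.890 in GFP ASO and at 0.985, 0.969 and 0.983 in U3 ASO. Groups were apart for NDUFB5, the first NDUFB6 event and NDUFV3, and no event of these exons was called.

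Exons of the assembly factors of complex I gave no call. A 193-base exon of NDUFAF6 was at 0, 0.059 and 0.115 in GFP ASO and at 0.294, 0.214 and 0.160 in U3 ASO, on a mean of 60.8 reads (unadjusted p = 0.0497, quasi-binomial test). The groups did not overlap, but the exon rests on few reads. An 84-base exon of NDUFAF5, a methyltransferase-like factor that modifies a complex I core subunit, was at 1 in 5 libraries and at 0.838 in GFP ASO library 3, so its unadjusted p of 0.0114 rests on 1 control library. A 104-base exon of the same gene was used in part in both groups, at 0.776 in GFP ASO and 0.757 in U3 ASO.

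In complex III the UQCRH 148-base exon was at 0.071, 0.052 and 0.133 in GFP ASO and at 0.139, 0.121 and 0.135 in U3 ASO. GFP ASO library 3 lay among the U3 ASO libraries. The change of 0.046 had an adjusted p of 0.528 by the quasi-binomial test, and 0.0136 without that library. In complex IV the 122-base exon of COX5A, a matrix-facing subunit, was at 1, 1 and 0.991 in GFP ASO and at 0.980, 0.938 and 0.966 in U3 ASO (unadjusted p = 0.0073, adjusted p = 0.802). All 3 U3 ASO libraries were below the controls. Measured against another downstream exon, the same exon averaged 0.995 in GFP ASO and 0.989 in U3 ASO (unadjusted p = 0.515, quasi-binomial test).

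In complex V, constitutive exons of ATP5MPL and ATP5PB were included slightly less after U3 ASO. A 124-base exon of ATP5MPL, the proteolipid subunit of the synthase membrane part, was at 1, 0.996 and 1 against 0.991, 0.979 and 0.992. A 146-base exon of ATP5PB, the peripheral stalk subunit b, averaged 0.996 against 0.967. The unadjusted p-values were 0.0179 and 0.0370, the groups did not overlap in either, and neither was called. Over complex V 28 of 40 events had a lower mean after U3 ASO, against 17816 of 30110 over all events, a difference that was not tested. Over the whole libraries the share of junction reads that skip an exon was 5.13 to 5.25% in GFP ASO and 5.75 to 5.85% in U3 ASO. At member events it was 9.02 to 10.2% and 9.57 to 10.1%, with overlap. The part of the library-wide shift in these member changes was not tested.

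**Figure D2:**
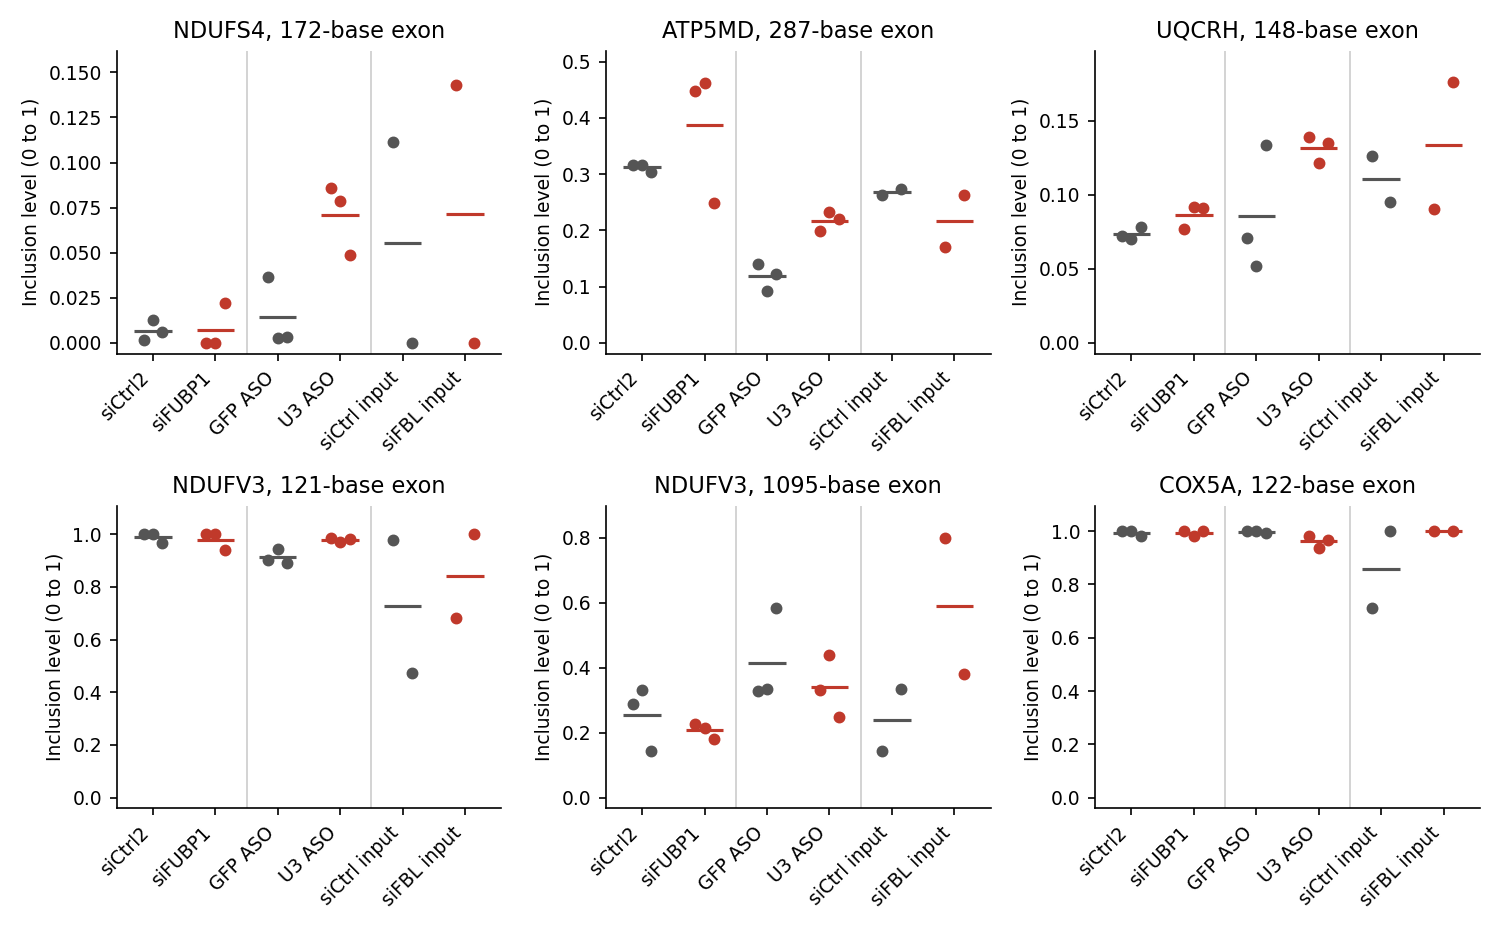
Inclusion level (0 to 1) in every library for 6 member exons, by group of the 3 experiments. Each point is a library and each bar the group mean, and the y axis differs between panels. The ATP5MD exon lay from 0.092 to 0.140 in GFP ASO and from 0.199 to 0.233 in U3 ASO, without overlap.

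After siFUBP1, 0 of 97 tested member events were called, against 32 of 16213 over all events, or 0.197%. An unadjusted p below 0.05 in the quasi-binomial test was found for 3 member events (3.09%), against 4.55% over all events. Changes were small: the median absolute change was 0.0091 for members and 0.0299 over all events, and 42 member events had a higher and 55 a lower mean, against 7791 and 8419 over all events. The groups did not overlap in 4 member events, all lower (4.12%, against 5.05% over all events). Limma on the log odds called no member event in any of its forms.

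The 3 member events with an unadjusted p below 0.05 were in complexes I, II and IV. The 117-base exon of COX5A was at 0.984, 0.980 and 1 in siCtrl2 and at 0.970, 0.936 and 0.95 in siFUBP1 (unadjusted p = 0.0280, adjusted p = 0.812), without overlap. Measured against another downstream exon, the same exon averaged 0.999 in siCtrl2 and 0.994 in siFUBP1 (unadjusted p = 0.346, quasi-binomial test). The 87-base exon of NDUFA10, an accessory subunit of complex I, went from 0.937, 1 and 0.958 to 1 in every siFUBP1 library. The 164-base exon of SDHC, a membrane anchor of complex II, was at 1, 0.886 and 0.909 against 0.992, 1 and 0.975. In these latter exons the groups overlapped or touched, and their unadjusted p-values were 0.0310 and 0.0487.

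Exons with partial inclusion gave no call either. The ATP5MD 287-base exon was at 0.316, 0.316 and 0.304 in siCtrl2 and at 0.449, 0.463 and 0.249 in siFUBP1. Libraries 1 and 2 of siFUBP1 lay above the controls and library 3 below them, and the adjusted p was 0.812. UQCRH was at 0.073 ± 0.0041 against 0.086 ± 0.0085 (SD, n = 3). The 1095-base exon of NDUFV3, which adds a long stretch to that subunit, was at 0.254 ± 0.099 against 0.207 ± 0.023 (SD, n = 3).

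After siFBL, 0 of 33 tested member events were called, and 0 of 5218 over all events (0%). The study itself reports skipped exons that depend on FBL, from these input libraries with rMATS at a false discovery rate below 0.1. A different test was used here, so the absence of calls does not show that no exon changed. The quasi-binomial test gave an unadjusted p below 0.05 for 1 member event and for 120 events of all genes, and limma on the log odds called up to 3 events over all genes. The member event was a 90-base exon of NDUFAF2, an assembly factor of complex I, at 1 and 1 in siCtrl input and at 0.525 and 1 in siFBL input, so it rests on 1 library. The groups did not overlap in 2 member events, both higher (6.06%, against 13.8% over all events). One was the 1095-base exon of NDUFV3, at 0.145 and 0.333 in siCtrl input and at 0.8 and 0.379 in siFBL input on a mean of 34 reads (unadjusted p = 0.243). This change was not called, and the smallest change that 2 libraries per group could show was not tested.

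**Figure D3:**
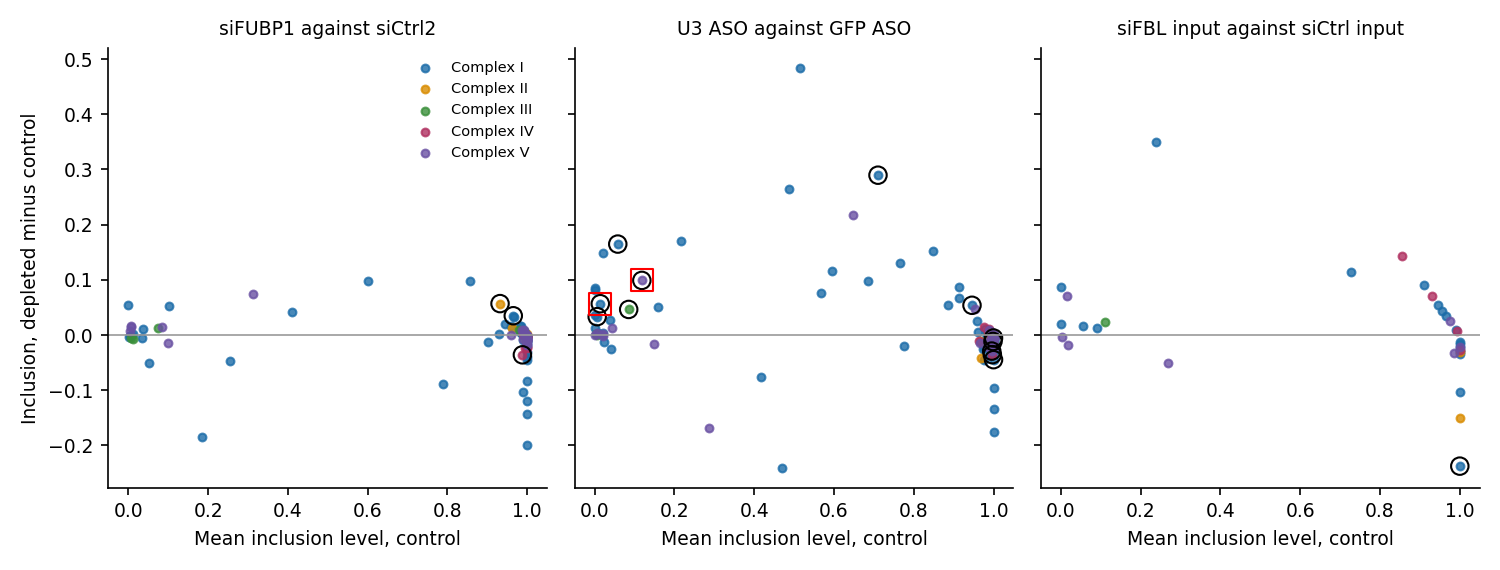
Change in inclusion level (depleted minus control) of every tested member event against its control inclusion level (0 to 1), in 1 panel per experiment. Circles mark an unadjusted p under 0.05 and red squares an adjusted p under 0.1. Only the U3 panel holds squares, at NDUFS4 (0.057) and ATP5MD (0.099).

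There were 27 member events in 21 genes tested in all 3 experiments. In the controls, 12 were at or above 0.95 everywhere, 5 were below 0.05 everywhere, and 3 lay between these bounds everywhere: ATP5MD, UQCRH and NDUFV3. For ATP5MD the control mean was 0.312 in siCtrl2, 0.118 in GFP ASO and 0.268 in siCtrl input, and the change was 0.075 after siFUBP1, 0.099 after U3 ASO and -0.051 after siFBL. Experiments differ in time, transfection and library type, so these controls are given side by side and were not compared. A 120-base exon of NDUFA11, a membrane arm subunit, was at 0.038, 0.039 and 0.090 in the 3 controls and at 0.048, 0.067 and 0.103 after depletion. Its smallest unadjusted p was 0.0683, after U3 ASO. In COX5A the 117-base exon changed by -0.036 after siFUBP1, 0.014 after U3 ASO and -0.026 after siFBL, and the neighbouring 122-base exon by -0.00094, -0.036 and 0.144. The last value rests on 1 siCtrl input library at 0.712, with the other 3 libraries at 1 (unadjusted p = 0.0808, quasi-binomial test). Against another downstream exon, the 117-base exon changed by -0.0047 after siFUBP1 and 0.0080 after siFBL. So measured, the 122-base exon changed by -0.0019 after siFUBP1 and -0.0061 after U3 ASO. Against another upstream exon, the 122-base exon changed by -0.024 after siFUBP1 and 0.071 after siFBL. Of 80 member events tested after both siFUBP1 and U3 ASO, 0 had an unadjusted p below 0.05 in both.

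Transcript level was followed as junction RPM, summed over all listed events of a gene, since gene counts per library were not used here. This stand-in covers spliced transcripts of genes with listed exons. Limma with a variance trend was fitted on log2(junction RPM + 0.5) over all genes averaging 10 or more reads, called at an adjusted p below 0.1, and log2 changes are on that scale.

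After siFUBP1, 3 of 45 tested member genes fell (COX7B, ATP5F1B and ATP5PD) and 0 rose. Over all genes 6.48% were called lower and 5.74% higher. The median change of the members was -0.049, against -0.046 over all genes. COX7B, a small complex IV subunit, had 162, 124 and 144 junction RPM in siCtrl2 and 97.4, 90.2 and 72.8 in siFUBP1. Every siFUBP1 library was below every control. The log2 change was -0.72 (SE 0.17), with a limma adjusted p of 0.0111.

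Both other genes that fell encode subunits of the ATP synthase. ATP5F1B, the catalytic beta subunit, had 707, 691 and 697 junction RPM in siCtrl2 and 486, 547 and 610 in siFUBP1. The groups did not overlap, and the log2 change was -0.36 (SE 0.10, limma adjusted p = 0.0304). Without siFUBP1 library 1 the adjusted p was 0.152. ATP5PD, the peripheral stalk subunit d, had 256, 172 and 248 against 173, 173 and 146, so siCtrl2 library 2 lay among the depleted libraries. Its log2 change was -0.44 (SE 0.15, limma adjusted p = 0.0877). That call was lost without siCtrl2 library 1 or 3 or any siFUBP1 library (adjusted p from 0.122 to 0.299).

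The next genes by p were not called. The central stalk subunit ATP5F1C changed by -0.27 (limma adjusted p = 0.148) and the membrane subunit ATP5MG by -0.23 (adjusted p = 0.260). NDUFC2, a membrane arm subunit of complex I, changed by -0.26 (adjusted p = 0.163). A pair of complex I genes had higher means: NDUFAF5 by 0.71 (adjusted p = 0.101) and NDUFS4 by 0.32 (adjusted p = 0.132). Scaled by the median ratio over genes in place of the total, both passed the threshold (0.0839 and 0.0932), ATP5PD did not (0.123), and 6.67% of all genes were called higher and 5.6% lower. All 12 tested complex V genes had a median of -0.079, and the 22 of complex I a median of -0.025.

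**Figure D4:**
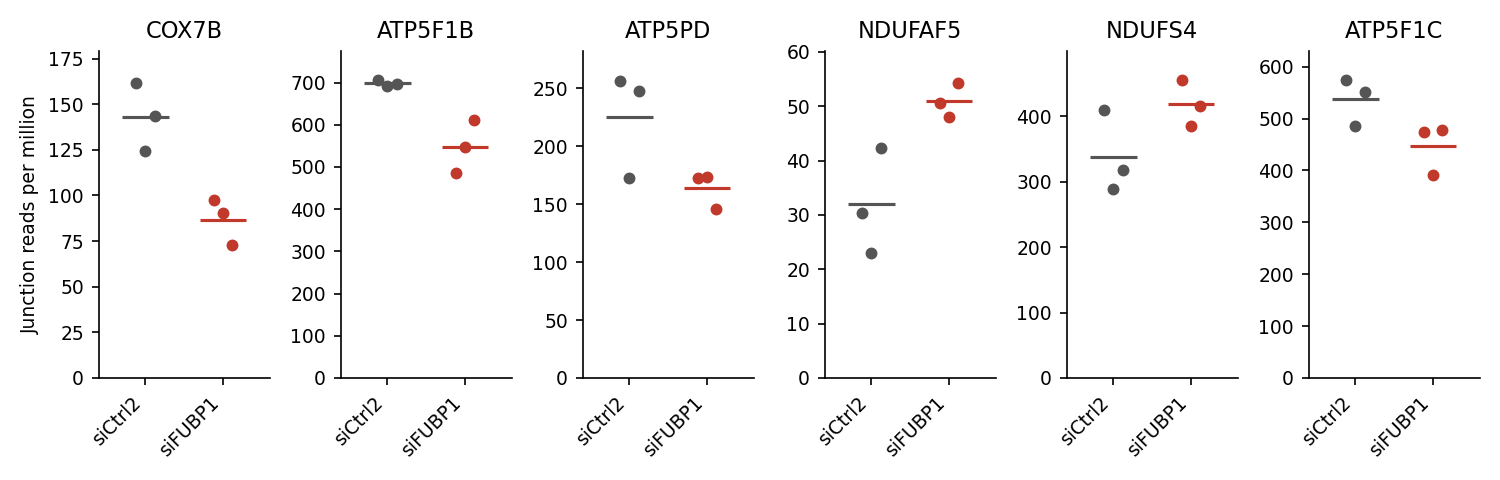
Junction RPM in each siCtrl2 and siFUBP1 library for COX7B, ATP5F1B, ATP5PD, NDUFAF5, NDUFS4 and ATP5F1C. Points are libraries, bars are group means, and each y axis starts at 0. COX7B lay from 124 to 162 in siCtrl2 and from 72.8 to 97.4 in siFUBP1.

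After U3 depletion the member genes called, and the direction of the calls, depended on the scaling. Scaled to total junction reads, 17 of 53 tested member genes rose and 0 fell, while over all genes 36.8% were called higher and 10.4% lower and the median change was 0.27. Scaled by the median ratio, 4 member genes rose and 11 fell, while 18.5% of all genes were called higher and 19.2% lower and the median of all genes was 0.027. The median of the members was 0.16 by total and -0.088 by median ratio, below the median of all genes in both. A change of scaling shifts all genes of a library together, so it leaves the order of the genes largely as it was.

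The 4 genes called higher with both scalings were NDUFAF5, ATP5MD, NDUFB9 and NDUFB5. NDUFAF5 had 42.7, 64.2 and 58.2 junction RPM in GFP ASO and 87.6, 96.2 and 120 in U3 ASO. Its log2 change was 0.88 by total and 0.64 by median ratio (limma adjusted p = 0.000117 and 0.00276). ATP5MD had 87.3, 101 and 96.3 against 144, 153 and 143. Its log2 change was 0.63 by total and 0.38 by median ratio (adjusted p = 4.09e-05 and 0.00503). In both genes every U3 ASO library was above every control. Part of the ATP5MD reads are those of its 287-base exon, which was also included more.

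NDUFB9 and NDUFB5, membrane arm subunits of complex I, changed less. NDUFB9 had 203, 177 and 196 junction RPM in GFP ASO and 292, 268 and 268 in U3 ASO, with log2 changes of 0.52 by total and 0.28 by median ratio. NDUFB5 had 108, 133 and 116 against 168, 153 and 172, with log2 changes of 0.47 and 0.22. Their groups did not overlap. With total scaling the genes called higher also included COX5A, COX6B1, COX6C and COX7B of complex IV, NDUFA5, NDUFC2, NDUFV2 and NDUFV3 of complex I, SDHA of complex II, UQCRB of complex III, and ATP5MPL and ATP5PB of complex V. With the median ratio these 12 genes lay between -0.065 (ATP5MPL) and 0.25 (NDUFA5), and none was called.

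With the median ratio, 11 of 53 tested member genes were called lower, where 19.2% of all genes were. By complex these were 5 of 14 tested genes in complex V, 4 of 26 in complex I and 2 of 6 in complex III. The 5 complex V genes were ATP5MC2, a c ring subunit (-0.61), ATP5F1A, the alpha subunit (-0.41), ATP5ME (-0.39), ATP5MF (-0.22) and ATP5F1B (-0.19). Complex I contributed NDUFA10 (-0.41), NDUFA11 (-0.39), NDUFAF2 (-0.27) and NDUFAB1 (-0.17), and complex III contributed UQCRQ (-0.27) and UQCRC1 (-0.17). With total scaling none of the 11 was called, and ATP5F1B, ATP5MF, NDUFAB1 and UQCRC1 had changes above 0. ATP5F1A had 315, 296 and 337 junction RPM in GFP ASO and 253, 304 and 291 in U3 ASO, so the groups overlapped. These genes are described relative to the median gene of the library, and an absolute direction cannot be given.

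**Figure D5:**
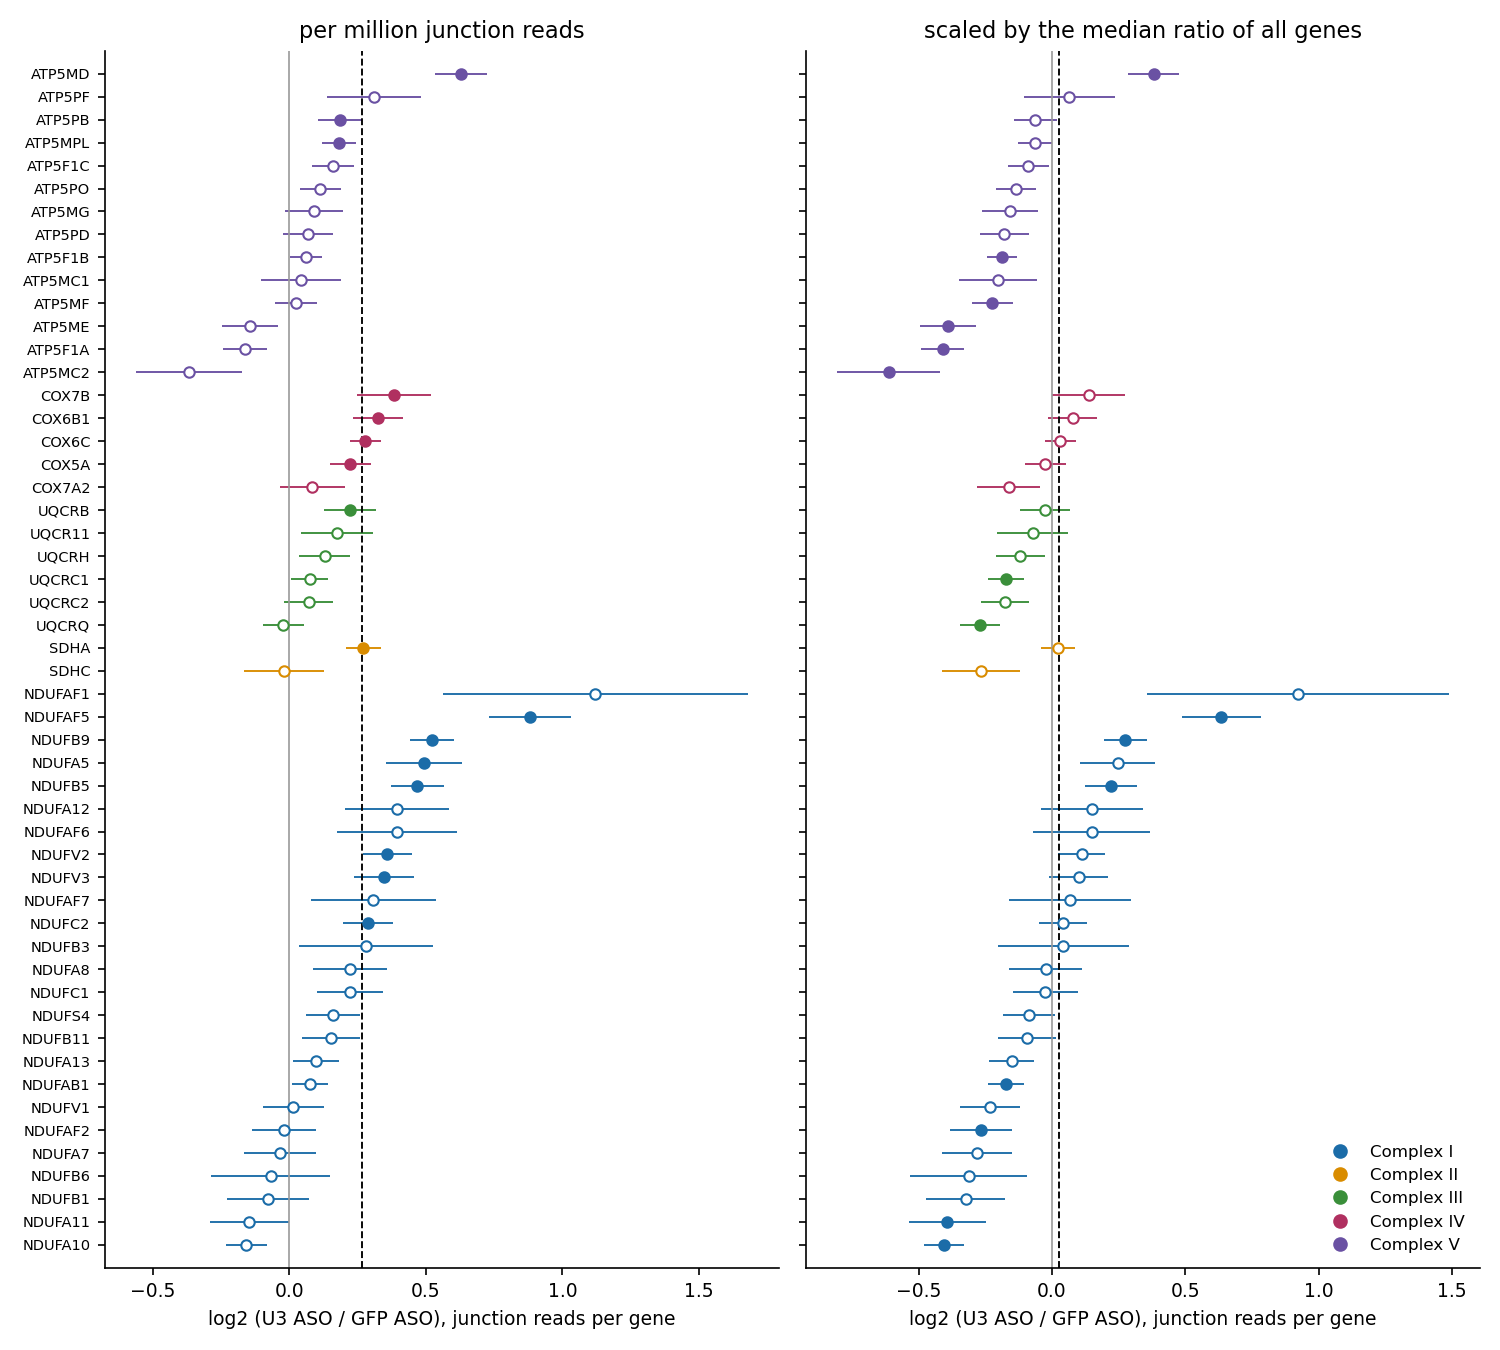
Log2 change of junction reads (U3 ASO over GFP ASO) of 52 of the 53 tested member genes, scaled to total junction reads and by the median ratio over genes. Points are fitted changes with bars of 1 SE, filled points are called at an adjusted p under 0.1, and dashed lines are the median of all genes (0.27 and 0.027). Called genes lie above 0 in the first panel and on both sides in the second.

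After siFBL, 0 of 24 tested member genes were called by limma, where 0.777% of all genes were called higher and 2.86% lower. An unadjusted p below 0.05 was found for 1 member, and the median ratio also called 0. The median change of the members was -0.060, against -0.19 over all genes. NDUFA10 had 129 and 155 junction RPM in siCtrl input and 61.0 and 95.2 in siFBL input (log2 change -0.88, SE 0.40, adjusted p = 0.324). NDUFA11 had 41.1 and 42.8 against 110 and 61.8 (log2 change 0.97, SE 0.51, adjusted p = 0.425). In both genes the groups of 2 libraries did not overlap, and neither change was called after adjustment over all genes. The share of all genes with such a separation was not counted.

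The other genes of the pathway were examined in the same fits. A list of 67 assembly factors, electron carriers and nuclear regulators, none of them a member, held 34 genes tested after siFUBP1. COX20, an assembly factor of complex IV, rose (0.49), and TIMMDC1 and UQCC1, assembly factors of complexes I and III, and ATPAF1, an assembly factor of the ATP synthase, fell (-0.58, -0.55 and -0.64) with total scaling, where 5.74% of all genes were called higher and 6.48% lower. With the median ratio UQCC1 was no longer called (limma adjusted p = 0.120). After U3 ASO, 16 of 43 rose and 2 fell (FOXRED1 and ETFB) with total scaling. Over all genes that scaling called 36.8% higher and 10.4% lower. With the median ratio 5 rose and 7 fell, where 18.5% of all genes were called higher and 19.2% lower. After siFBL, 1 of 15 fell, ETFB, the beta subunit of the electron transfer flavoprotein (-0.37, limma adjusted p = 0.0842), and its adjusted p was 0.550 with the median ratio. Of the exon events in the list, 1 of 85 was called after siFUBP1, against 0.197% of all events. After U3 ASO 1 of 179 was called, against 0.226%, and after siFBL 0 of 27, against 0%.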

How the data were processed

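The authors trimmed adapters with cutadapt, mapped reads to hg38 with HISAT2, counted genes (HTSeq in the methods, featureCounts in the submitters' processing notes), ran DESeq2, and listed skipped exons with rMATS from junction reads. Tool versions and the annotation release are not given in the sources used here. The deposited event tables hold inclusion and skipping junction reads per library as lists in 1 cell per group, and these read lists were used. The deposited gene table holds the authors' mean normalized count per condition, a score with no values per library. Its values include 6 distinct single-read levels per condition, so 6 libraries appear to enter each mean, where the labels give 4. The authors' fold changes, p-values, false discovery rates, inclusion differences and 6 columns of inclusion levels were not used.

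Groups came from the labels. Libraries are numbered by their place in the lists, which carry no replicate number. Replicates are biological per the study's methods, and no 2 libraries were identical. Inclusion was tested by a quasi-binomial F test with dispersion moderated across all events (limma 3.58.1, R 4.3.3), and junction reads per gene by limma, both fitted on whole tables. Exons and canonical transcripts are from GENCODE 44. Scripts were tested on simulated data. Sequences were read from hg38. The events named were every called member event, then those of smallest p with at least 50 reads per library (up to 12 in all), then partly included events with at least 100 reads (up to 8). The genes named were those called, then those of smallest p up to 8 in all. Exons measured in all 3 tables and events named by their groups not overlapping are also given. Members and lists were chosen with earlier results of these data known. Alternatives covered the test, dispersion, read filters, pseudocount, scaling, threshold and each library left out. Alternatives for an event's own dispersion, the information trend and the exon-union length were added after seeing the data. The values of 1 member gene are not reported here.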

Additional observations from a re-analysis of the deposited data

How the results depend on the processing

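No paired analysis was possible because the read lists carry no replicate number. The U3 calls depended on the test: where 2 member events were called, 0 were called with limma on the log odds, with or without a variance trend (0 over all events), 1 with a dispersion trend on reads, 1 with own dispersions (41 over all events) and 4 with a trend on information (325 over all events). Over all events the siFUBP1 count of 32 became 8 and 2 with limma on the log odds, 53 with the dispersion trend and 116 with the information trend, and the siFBL count of 0 became 3 with the latter. At an adjusted p below 0.05, 506 genes were called after siFUBP1, against 786. The median RIP table percentiles were 74.0 (siCtrl) and 75.1 (siFBL) with a count minimum of 50, and 68.7 and 71.9 with exon-union lengths. Median-ratio scaling lowers all U3 gene changes together, and the sign reversed for 23 of 53 member genes, among the named ones ATP5F1B (-0.19), ATP5MF (-0.22), ATP5MPL (-0.065), ATP5PB (-0.063), COX5A (-0.024), NDUFAB1 (-0.17), UQCRB (-0.026) and UQCRC1 (-0.17), and with only the event with the most reads for ATP5MF (-0.0022) and NDUFAF2 (0.015). The cause was not tested.

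Leaving out 1 library gave 0 to 3 U3 member events (33 to 60 over all events), 0 siFUBP1 member events (20 to 32 over all events) and 0 siFBL events. For genes it gave 1 to 3 members after siFUBP1 (506 to 595 over all genes), 16 to 20 after U3 ASO (3363 to 3852) and 0 after siFBL (7 to 89). Some values that were not called changed sign: after siFUBP1 NDUFA12 (-0.048 to 0.037) and the NDUFAF2 41-base exon (-0.0017 to 0.044), after U3 ASO the ATP5MD 196-base (-0.044 to 0.0072), NDUFAF5 104-base (-0.064 to 0.024) and NDUFV3 1095-base exons (-0.126 to 0.0089) and the junction reads of ATP5MF (-0.028 to 0.066), NDUFAF2 (-0.082 to 0.050) and UQCRQ (-0.068 to 0.019), and after siFBL the ATP5MF exon (-0.081 to 0.015). With 2 libraries per group in the siFBL experiment, leaving out 1 leaves a single library whose spread is taken from the other group, so the siFBL ranges say little about stability. Depth was lowest there (910779 to 1142189 junction reads).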
